A study of Mus musculus with 6 samples.

Results

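Mrgprg, Mrgpre and Mrgprf are 3 mouse genes of the Mas-related receptor family, and they were followed here through RNA sequencing of lung innate lymphoid cells (ILCs) sorted with or without KLRG1. The 3 genes are members of a table of 52636 genes. Mrgprg was selected on its counts in these same libraries, which are even over the KLRG1-negative group and 0 in the KLRG1-positive group, and Mrgpre and Mrgprf were added by name. The KLRG1-positive group held 3 libraries, whose protocol calls the sort KLRG1-high, and the KLRG1-negative group held 3. All mice were wild-type C57BL/6 animals of the IL-4 4get GFP reporter strain, in which green fluorescent protein reports Il4 expression. All received 500 ng of interleukin-33 intraperitoneally for 4 days and were killed on day 5, so no untreated cells enter the comparison. Cells lacking lineage markers and carrying CD90 were sorted from lung, and no label gives the animals' age or says whether libraries of a group came from separate mice. P-values therefore measure only the spread between these libraries, which may be technical.

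Mas-related receptors are G protein-coupled receptors that are best known from sensory neurons, where several members respond to itch-inducing peptides and amines. Mrgprb2 in mouse mast cells, the counterpart of human MRGPRX2, triggers degranulation by basic peptides and drugs. Mrgpre, Mrgprf and Mrgprg are usually counted as orphan receptors, that is, receptors without an agreed natural ligand. ILC2, the ILC subset that interleukin-33 activates and that carries KLRG1 when activated, makes type 2 cytokines.

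All 3 genes lie on chromosome 7 (GRCm38). Mrgprg (ENSMUSG00000050276) runs from 143763710 to 143766993 on the minus strand, and its main transcript has 2 exons with all 867 coding bases in 1 of them. Mrgpre (ENSMUSG00000048965) runs from 143778363 to 143784500, also on the minus strand, with 2 exons and 930 coding bases in 1 exon. The bodies of Mrgprg and Mrgpre are separated by 11.4 kb. Mrgprf (ENSMUSG00000031070) runs from 145300828 to 145309557 on the plus strand, has 3 exons with 1029 coding bases, and begins 1516 kb beyond Mrgpre, so it is a family member on the same chromosome and not an adjacent gene.

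The 250 bases in front of the transcription starts of Mrgprg and Mrgpre are shown because these adjacent genes, read in the same direction, had their higher level in opposite groups. The sequences come from RefSeq (GRCm38.p6), where 2 of the 3 members matched, and they are written 5′ to 3′ on the minus strand, ending at the base before the start. Capitals mark CTTTGA, a core word bound by TCF and LEF factors, in the Mrgprg window (chr7:143766994-143767243). They mark AGGTCA, the half-site of ROR receptors, in the Mrgpre window (chr7:143784501-143784750).
Mrgprg: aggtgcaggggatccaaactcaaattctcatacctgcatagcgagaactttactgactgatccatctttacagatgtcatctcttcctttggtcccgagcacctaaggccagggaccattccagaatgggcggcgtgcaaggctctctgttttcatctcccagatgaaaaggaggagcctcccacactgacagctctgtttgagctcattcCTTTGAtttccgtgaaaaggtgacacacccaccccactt
Mrgpre: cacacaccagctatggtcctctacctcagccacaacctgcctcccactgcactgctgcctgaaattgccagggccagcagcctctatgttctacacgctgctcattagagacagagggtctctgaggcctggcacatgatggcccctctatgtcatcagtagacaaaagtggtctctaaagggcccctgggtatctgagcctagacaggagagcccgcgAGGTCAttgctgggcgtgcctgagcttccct

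CTTTGA stands 39 to 34 bases before the Mrgprg start, and AGGTCA stands 31 to 26 bases before the Mrgpre start, both on the strand shown. Both strands were searched, and the words were chosen with the sequences in view. CTTTGA was found in 13.8% and AGGTCA in 14% of 32851 windows of the same length, so each word is a common one. GATAA for GATA factors, TGTGGT for RUNX factors, GGTGTGA for T-box factors and TATAAA for a TATA box are not in either window. They occur in 22.6%, 14%, 3.33% and 12.4% of all windows in that order. The GC content was 50% before Mrgprg and 57.2% before Mrgpre, against a median of 52.4% over all windows. A match or its absence describes these letters only.

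Assigned counts ranged from 17323004 to 23946073 per library, and multi-mapping alignments, which were left out of the counts, made up 26.3 to 32.3% of each library. Klrg1, the gene of the sort marker, stood at 1485, 1786 and 1327 CPM (counts scaled to library totals with TMM factors) in the KLRG1-positive libraries, against 13.1, 193 and 73.2 CPM in the KLRG1-negative ones. The labelled cell type was checked against its markers. Klrg1 was on the list of 14 ILC2 markers, whose summed level was 8621, 9894 and 8192 CPM in KLRG1-positive libraries, against 1668, 4238 and 3132 CPM in KLRG1-negative ones. T cell, B cell and fibroblast markers were also present in the KLRG1-negative libraries, although the label names lineage-negative ILCs. The 12 T cell markers summed to 545, 494 and 417 CPM in KLRG1-positive libraries, against 6690, 2910 and 1666 CPM in KLRG1-negative ones. Of the KLRG1-positive sums, Cd3g alone gave 148, 313 and 249 CPM. The 12 fibroblast markers summed to 154, 178 and 170 CPM in KLRG1-positive libraries and to 4217, 7229 and 11597 CPM in KLRG1-negative ones. Most of the KLRG1-positive sums came from Npnt, at 121, 152 and 163 CPM. This marker was lower in the KLRG1-negative libraries, at 21.7, 64.1 and 36.7 CPM. The 6 B cell markers summed to 128, 121 and 350 CPM in KLRG1-positive libraries and to 526, 644 and 4192 CPM in KLRG1-negative ones. The parts of these cell types in the values given here were not tested. In bulk samples such as these, fewer cells of a type and less RNA per cell cannot be told apart.

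Mrgprg had 0 counts in each of the 3 KLRG1-positive libraries, against 612, 905 and 852 counts in the KLRG1-negative libraries. These correspond to 0 CPM in each KLRG1-positive library and to 34.0, 35.7 and 40.9 CPM in the KLRG1-negative ones. The groups do not overlap, and the KLRG1-negative values lie close together, with library 3 highest. The KLRG1-negative mean was 36.9 ± 3.6 CPM (SD, n = 3). With 3 counts over the 3 KLRG1-positive libraries, or 0.0508 CPM, taken as the floor, Mrgprg was at least 726-fold lower in the KLRG1-positive group. This is the pattern for which the gene was chosen, so it is given as a description, without a test. Of 15197 genes that passed the filter on low counts, 109, or 0.717%, had no KLRG1-positive count at all.

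The 3 KLRG1-negative values of Mrgprg had a coefficient of variation (CV, the SD as a percentage of the mean) of 9.77%, and the highest was 1.2 times the lowest. Counting error alone accounts for a CV of 3.32 to 4.04% at these depths. The exact 95% Poisson interval was 31.4 to 36.9 CPM in KLRG1-negative library 1 and 33.4 to 38.1 CPM in library 2, and these intervals overlap. In library 3 it was 38.2 to 43.8 CPM, which lies above both. For a count of 0 in 1 KLRG1-positive library, the limit of 3 counts corresponds to 0.133 to 0.169 CPM, and the upper end of the exact 95% Poisson interval to 0.164 to 0.208 CPM. Both the intervals and these limits describe counting error alone, because PCR copies of 1 molecule are counted as separate reads. Among 2838 genes within 1.5 times the Mrgprg level in the KLRG1-negative group, the median CV was 30.9%, and 256 genes, or 9.02%, had a lower CV than Mrgprg.

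**Figure D1:**
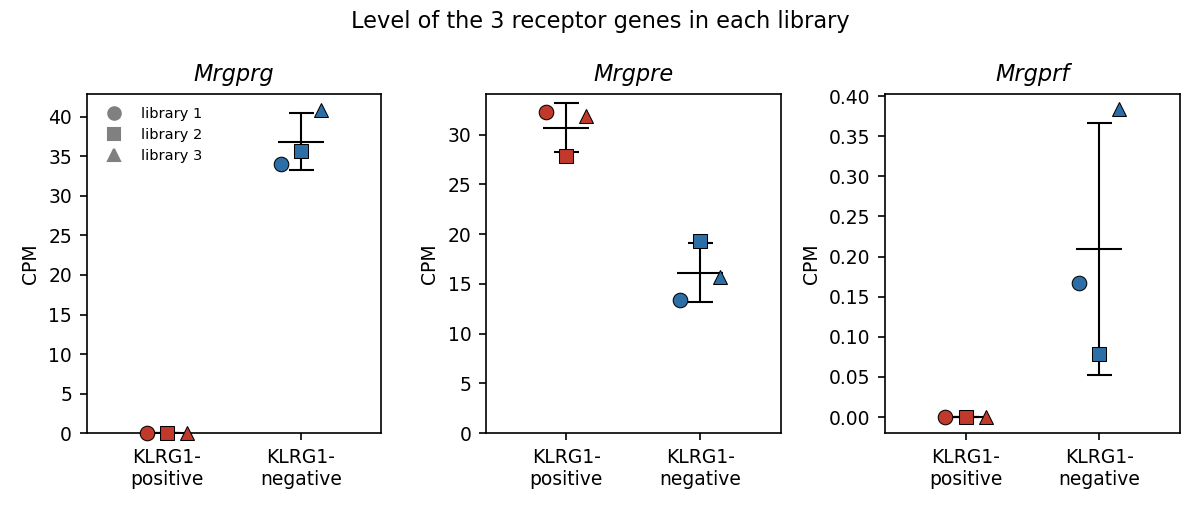
Level of Mrgprg, Mrgpre and Mrgprf in CPM (vertical axes, 1 scale per gene) in the KLRG1-positive (left) and KLRG1-negative (right) libraries; each symbol is 1 library, and the bars are the mean and SD of 3. Mrgprg is at 0 in all KLRG1-positive libraries and between 34.0 and 40.9 CPM in the KLRG1-negative ones, Mrgpre is detected in all 6, and Mrgprf stays under 0.4 CPM.

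Mrgpre, whose gene stands next to Mrgprg, was detected in all 6 libraries. It had 32.3, 27.9 and 31.9 CPM in the KLRG1-positive libraries, against 13.4, 19.3 and 15.7 CPM in the KLRG1-negative ones. All KLRG1-positive values lie above all KLRG1-negative ones, the opposite side from Mrgprg. The KLRG1-positive mean was 30.7 ± 2.45 CPM and the KLRG1-negative mean 16.1 ± 3.01 CPM (SD, n = 3 each), a ratio of 1.9. Among all genes tested, 9.46% had groups that did not overlap with KLRG1-positive higher, so Mrgpre shares this arrangement with 1437 genes. The log2 fold change was 0.93 ± 0.27 (SE), with an unadjusted p of 0.0129, and 4.19% of genes were higher at an unadjusted p under 0.05. Its adjusted p from edgeR's quasi-likelihood test was 0.159, which did not pass the threshold of 0.05 that 0.125% of genes passed with KLRG1-positive higher. DESeq2 gave the same log2 fold change with an adjusted p of 0.00783, a threshold that 1.91% of its genes passed with KLRG1-positive higher. The call for Mrgpre thus depends on the test.

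Within the KLRG1-negative group, Mrgpre had a CV of 18.6%, and its order over the libraries was library 2, then 3, then 1. The summed ILC2 markers had the same order, at 4238, 3132 and 1668 CPM. So did the summed smooth muscle and pericyte markers (82.0, 54.5 and 32.0 CPM) and G protein signalling genes (4678, 4274 and 2755 CPM). Mrgprg did not, since it was highest in library 3, and an order over 3 libraries is a weak criterion. Per kilobase of exon, Mrgprg averaged 18.5 ± 1.81 CPM and Mrgpre 4.29 ± 0.799 CPM in the KLRG1-negative libraries. The per-kilobase ratio of Mrgprg to Mrgpre was 4.82, 3.49 and 4.92 in KLRG1-negative libraries 1, 2 and 3. In the KLRG1-positive libraries Mrgpre averaged 8.16 ± 0.65 CPM per kilobase and Mrgprg was at 0.

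Mrgprf had 0 counts in each KLRG1-positive library, against 3, 2 and 8 counts in the KLRG1-negative libraries, or 0.167, 0.0789 and 0.384 CPM. The groups do not overlap, but the counts are few, and Mrgprf failed the filter on low counts, so it was not among the 15197 genes tested. An exact two-sided permutation test of the difference of -0.21 CPM over 3 libraries against 3 gave p = 0.1, the smallest this design can reach. The observed KLRG1-negative mean of Mrgprf, which rests on 13 counts, was 4.13 times the same KLRG1-positive floor of 3 counts. Without KLRG1-negative library 3 the difference was -0.123 CPM and this ratio 2.42. Neither ratio includes the counting error of the KLRG1-negative mean, so they are not firm lower limits. The 8 smooth muscle and pericyte markers, a cell class often sampled with blood vessels, summed to 26.9, 6.36 and 13.4 CPM in KLRG1-positive libraries. In the KLRG1-negative ones they summed to 32.0, 82.0 and 54.5 CPM. For Mrgprf no order over the KLRG1-negative libraries can be read, because the exact Poisson intervals of its values overlap. These were 0.0344 to 0.488, 0.00955 to 0.285 and 0.166 to 0.757 CPM. The markers did not share an order either, with Des at 4.39, 29 and 27.9 CPM and Acta2 at 8.96, 6.31 and 5 CPM. Whether the Mrgprf counts came from such cells was not tested.

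The whole family was then read from the same table. It had 21 genes, pseudogenes left out, and 14 of them had 0 counts in all 6 libraries. These included Mas1, the founding member, Mrgprd, a receptor of nociceptors, Mrgprh, and Mrgprb1 and Mrgprb2, of which the second marks connective tissue mast cells. Besides the 3 members, 4 genes had counts (Mrgpra2a, Mrgpra2b, Mrgpra6 and Mrgpra9). Mrgpra9 was at 4.84, 2.19 and 3.37 CPM in KLRG1-positive libraries, against 0.501, 1.58 and 5.62 CPM in KLRG1-negative ones. Its groups overlap, its log2 fold change was 0.43 ± 0.94 (SE), and its adjusted p from edgeR's quasi-likelihood test was 0.903. The other 3 stayed under 0.8 CPM in every library.

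The composition of the family's reads differed between the groups. Mrgpre held 86.8, 90.0 and 89.8% of all family counts in the KLRG1-positive libraries, against 27.4, 34.0 and 24.6% in the KLRG1-negative ones. Mrgprg held 0% in each KLRG1-positive library, against 69.9, 62.8 and 64.1% in the KLRG1-negative ones. These shares follow in part from the choice of Mrgprg and have no test. Because multi-mapping reads were left out, close copies can be understated. Of the words of 50 bases in its transcripts, Mrgprg and Mrgprf shared 0% and Mrgpre 1.35% with the transcripts of any other gene, while Mrgpra2a shared 87.5% and Mrgpra2b 81.2%, mostly with each other, and Mrgpra9 shared 12.8%.

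The pattern of Mrgprg over the KLRG1-negative libraries was then set beside Lum and Col3a1, which encode the fibroblast matrix proteins lumican and collagen III, and Cd3e, which encodes a chain of the T cell receptor complex. Lum had 0, 0 and 0.0444 CPM in KLRG1-positive libraries, against 118, 77.3 and 234 CPM in KLRG1-negative ones. Col3a1 had 11.1, 5.98 and 1.86 CPM in KLRG1-positive libraries, against 2146, 2849 and 5763 CPM in KLRG1-negative ones. Cd3e had 39.0, 8.81 and 12.5 CPM in KLRG1-positive libraries, against 798, 239 and 149 CPM in KLRG1-negative ones. Both fibroblast genes were highest in KLRG1-negative library 3, as Mrgprg was, and Cd3e was highest in library 1. Mrgprg was lowest in library 1, but its Poisson intervals in libraries 1 and 2 overlap.

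The 4 genes differed in how far the KLRG1-negative libraries stood apart. The highest library over the lowest was 1.2 for Mrgprg, 3.03 for Lum, 2.69 for Col3a1 and 5.37 for Cd3e, with CVs of 9.77, 57.0, 53.5 and 89.0%. The ratio of Lum to Mrgprg was therefore not constant, at 3.45, 2.17 and 5.72 CPM of Lum per CPM of Mrgprg in KLRG1-negative libraries 1, 2 and 3. For Col3a1 the ratio was 63.0, 79.9 and 141, and for Cd3e it was 23.5, 6.71 and 3.63. Mrgprg moved less between libraries than any of these markers, which is part of how it was chosen.

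**Figure D2:**
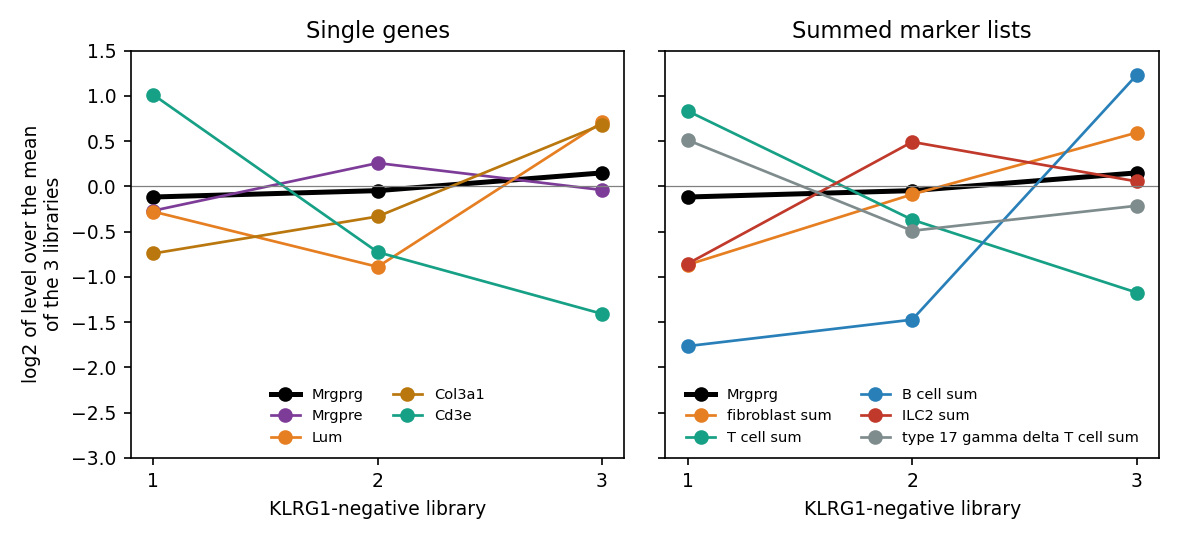
Level in each KLRG1-negative library over the mean of the 3, on a log2 scale (vertical axis), for single genes (left) and for summed marker lists (right); lines only join the points of 1 gene or list, since replicates have no order. The highest library over the lowest was 1.2 for Mrgprg, 3.03 for Lum, 2.69 for Col3a1, 5.37 for Cd3e and 7.97 for the B cell sum.

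The KLRG1-positive levels of the marker genes were also read as a percentage of their KLRG1-negative means. Mrgprg was chosen for its lack of KLRG1-positive counts, so its own value, at most 0.138% from the floor of 3 counts, restates that choice and is set beside the markers as a description only. The percentage was 0.176% for Col3a1 and 5.08% for Cd3e, and Lum had 1 KLRG1-positive count. Among 11 T cell markers with at least 10 CPM in the KLRG1-negative group it ran from 3.52 to 51.8%, and among 6 B cell markers from 5.13 to 24.9%. Among 11 fibroblast markers the lowest was 0.0103%, the value of Lum, the median 0.342% and the highest 357%, the value of Npnt. Of these 11, Col1a1 and Lum were at or below the 0.138% bound of Mrgprg. The Lum value rests on 1 count, under the floor of 3 counts that gave the bound, so the 2 cannot be ranked. Among 11 markers of type 17 gamma delta T cells, a lineage that makes interleukin-17, the lowest was 0.115%, the median 14.2% and the highest 331%. The lowest value was that of the interleukin-23 receptor gene Il23r, and it rests on 1 KLRG1-positive count, also under that floor. Il23r was uneven over the KLRG1-negative libraries, at 42.1, 2.44 and 4.61 CPM.

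The spread over the KLRG1-negative libraries was read for the same markers. None of the 11 T cell, 11 fibroblast, 11 type 17 gamma delta T cell, 6 B cell or 12 ILC2 markers with at least 10 CPM in the KLRG1-negative group had a CV as low as that of Mrgprg. Among genes within 1.5 times the Mrgprg level the share with a lower CV was 9.02%, so none in lists this short is near that background. In the G protein signalling list, Gnai2 had a lower CV, at 8.21%. The lowest CV was 49.8% among the T cell, 27.9% among the fibroblast, 32.6% among the type 17 gamma delta T cell, 107% among the B cell and 36.4% among the ILC2 markers. All 11 T cell markers were highest in KLRG1-negative library 1, all 6 B cell markers in library 3 and 10 of the 11 fibroblast markers in library 3. Of the ILC2 markers, 9 of 12 were highest in library 2. These counts are a description, since the evenness of Mrgprg entered its choice. The share of all genes highest in each library was not counted.

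To place the pattern among all genes, those with at most 3 counts over the KLRG1-positive group and at least 10 CPM in the KLRG1-negative group were collected. There were 72, Mrgprg included, of which 69 were protein-coding and 35 had no KLRG1-positive count. By CV, Mrgprg ranked 2 of 72, and the median CV was 68% and the highest 151%. The only gene with a lower CV was Ccn3, which encodes a matricellular signalling protein, at 9.48%. Of the 72 genes, 50 were highest in KLRG1-negative library 3, 14 in library 2 and 8 in library 1, and 50 were lowest in library 1. The same shares over all genes were not counted, so these counts are not read as a trait of the 72. Mrgprg was also lowest in library 1, but its Poisson intervals in libraries 1 and 2 overlap. The marker lists held 3 of the 72, namely Lum, Il23r and the mesothelial gene Wt1.

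The genes whose profile was most like that of Mrgprg were ranked by the largest difference over the 3 KLRG1-negative libraries, in log2 CPM centred on each gene's own mean. Likeness over 3 libraries is a weak criterion, and it is given as a description. Galnt15, an enzyme of O-glycosylation, differed by at most 0.18, with 0 counts in each KLRG1-positive library, against 9.35, 10.7 and 14.2 CPM in the KLRG1-negative ones. Col8a1, a collagen chain, also differed by at most 0.18, with 16.9, 14.2 and 19.1 CPM in the KLRG1-negative libraries. Ccn3 differed by at most 0.28, with 51.7, 46.0 and 42.9 CPM, and its lowest library was the highest of Mrgprg. The remaining 7 of the 10 were Aldh1a3, a retinaldehyde dehydrogenase, Sulf1, an extracellular sulfatase, Lhfpl2, Lrrc17, Olfml1, the transporter gene Abca6 and the scavenger receptor gene Scara3, at 0.39 to 0.66. The median over all the collected genes was 1.26.

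**Figure D3:**
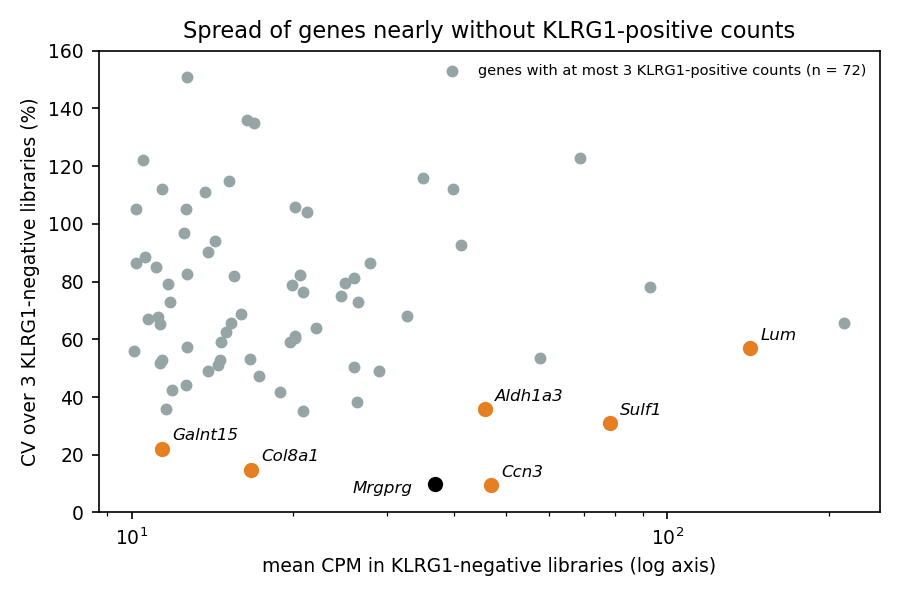
Mean CPM in the KLRG1-negative libraries (horizontal log axis) against the CV over those 3 libraries (vertical axis, percent) for the 72 genes with at most 3 KLRG1-positive counts and at least 10 CPM in the KLRG1-negative group; Mrgprg is black, and Lum and the 5 genes most like Mrgprg are orange. Mrgprg (9.77%) and Ccn3 (9.48%) lie at the lower edge, against a median of 68%.

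The surroundings of Mrgprg were read next. Besides Mrgpre, 10 protein-coding genes start within 250 kb of the Mrgprg start, 9 of which were tested. By edgeR's quasi-likelihood test 0 of the 9 passed, at adjusted p-values of 0.306 to 0.999, 1 had an unadjusted p under 0.05, and DESeq2 called 0. Over all genes, edgeR called 0.125% higher and 1.21% lower, 4.19% were higher and 11.5% lower without adjustment, and DESeq2 called 1.91% higher and 8.79% lower, so counts this small are near the background. Their log2 fold changes ran from -0.86 to 0.48. The nearest, Osbpl5, which encodes an oxysterol-binding lipid transfer protein and starts 10 kb away, was at 204, 217 and 161 CPM in KLRG1-positive libraries, against 137, 116 and 165 CPM in KLRG1-negative ones. Its groups overlap, and its log2 fold change was 0.48 ± 0.21 (SE) with an adjusted p of 0.351 from edgeR.

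On the side away from Mrgpre lie 3 receptors of the tumour necrosis factor receptor family. Tnfrsf26 was at 57.0, 58.8 and 47.5 CPM in KLRG1-positive libraries, against 137, 104 and 55.7 CPM in KLRG1-negative ones, and Tnfrsf23 had groups that did not overlap, with a KLRG1-positive mean of 4.72 ± 1.65 CPM and a KLRG1-negative mean of 8.34 ± 1.83 CPM (SD, n = 3 each). Among all genes tested, 15.2% had groups that did not overlap with KLRG1-positive lower. Gm498 had 0 counts in all libraries. Mrgprf lies in another stretch, with Tpcn2, a channel gene, 16.8 kb away by its start (adjusted p = 0.875 by edgeR's quasi-likelihood test), and with Mrgprd, which had 0 counts, 14.0 kb away.

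**Figure D4:**
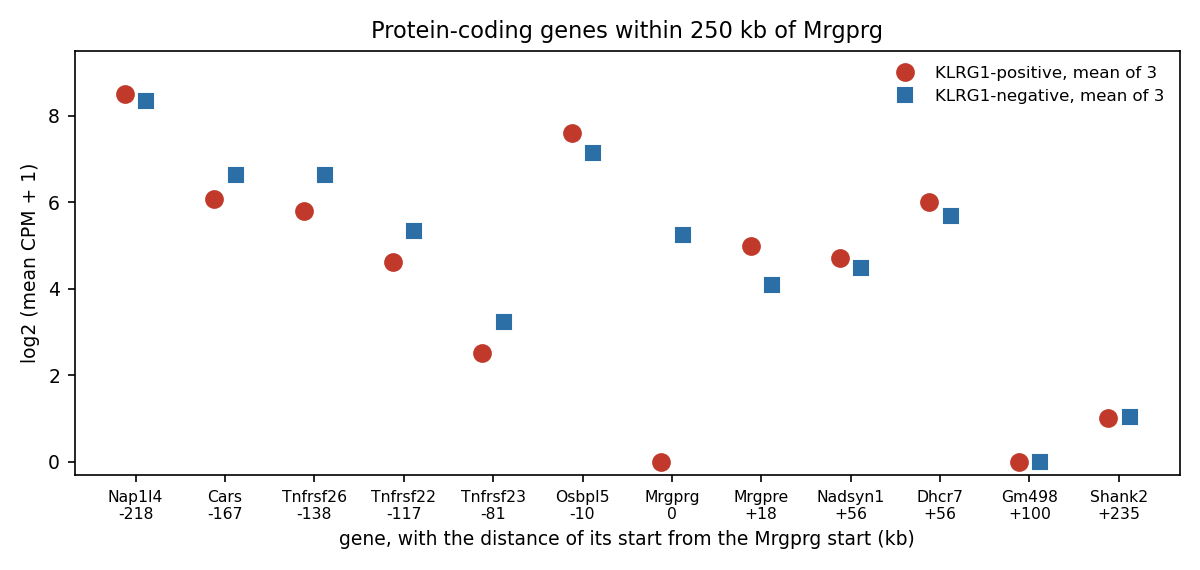
Mean level of the 12 protein-coding genes within 250 kb of the Mrgprg start, Mrgprg included, as log2(mean CPM + 1) (vertical axis), ordered by the distance of their starts from that of Mrgprg; circles are the KLRG1-positive and squares the KLRG1-negative means of 3 libraries. Mrgprg is at 0 in the KLRG1-positive group, while Osbpl5 and Mrgpre beside it are present in both groups.

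G protein-coupled receptors act through heterotrimeric G proteins, phospholipase C, inositol trisphosphate receptors, protein kinase C, arrestins and regulators of G protein signalling. A list of 26 such genes had 25 tested members, and 0 rose and 0 fell by edgeR's quasi-likelihood test, against 0.125% higher and 1.21% lower over all genes. Without adjustment, p was under 0.05 for 4 higher and 2 lower genes, against 4.19% and 11.5% of all genes, and DESeq2 called 2 higher and 0 lower, against 1.91% and 8.79%. The median log2 fold change of the list was 0.02, against -0.05 over all genes tested. The member with the highest level over all 6 libraries, Rgs1, a brake on G protein signals in lymphocytes, was at 949, 1653 and 1916 CPM in KLRG1-positive libraries, against 104, 1053 and 943 CPM in KLRG1-negative ones, and its groups overlap (adjusted p = 0.606 by edgeR). Gnai2, the main inhibitory G protein alpha subunit of leukocytes, had a KLRG1-positive mean of 987 ± 509 CPM and a KLRG1-negative mean of 973 ± 79.8 CPM (SD, n = 3 each). Gna15, an alpha subunit that couples many receptors to phospholipase C, was named after its values were seen. It was at 162, 227 and 195 CPM in KLRG1-positive libraries, against 43.9, 85.4 and 78.0 CPM in KLRG1-negative ones, with a log2 fold change of 1.49 ± 0.30 (SE) and an adjusted p of 0.0716 by edgeR.

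Precursors of peptides that act on related receptors made a list of 7, of which 4 were tested. Adm, the precursor of adrenomedullin, fell, and it was named after its values were seen. It was at 0.338, 1.01 and 0.799 CPM in KLRG1-positive libraries, against 10.3, 11.2 and 17.1 CPM in KLRG1-negative ones, with a log2 fold change of -4.15 ± 0.61 (SE). Its adjusted p was 0.043 by edgeR's quasi-likelihood test and 0.0748 with the replicate number as a block, and the list lost this call when any 1 library was left out. Penk, the enkephalin precursor, had a KLRG1-positive mean of 23.8 ± 19.0 CPM and a KLRG1-negative mean of 24.0 ± 11.7 CPM (SD, n = 3 each, adjusted p = 0.998 by edgeR). Pomc and Npff were the other tested members. Vip, the precursor of vasoactive intestinal peptide, had 0 counts throughout. The median log2 fold change of the 4 was -1.14.

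The marker lists used above had these calls by edgeR's quasi-likelihood test. They are a description, because the lists were chosen with earlier results of these data known. Some listed genes passed the filter on low counts only through the KLRG1-negative group, such as Lum with 1 KLRG1-positive count. Shares over all genes stand beside the calls for scale and are no test of a list. Of 12 fibroblast markers tested, 9 fell and 0 rose, against 1.21% lower and 0.125% higher over all genes, with a median log2 fold change of -7.94. Npnt, which encodes a matrix protein, had the opposite sign (log2 fold change 1.83 ± 0.41 SE, adjusted p = 0.0916). With the replicate number as a block 2 of the 12 fell, against 0.349% of all genes. Without KLRG1-negative library 2 it was 2, without KLRG1-positive library 2 or 3 or KLRG1-negative library 3 it was 0, without KLRG1-positive library 1 it was 9, and without KLRG1-negative library 1 it was 8. Read against the same shares, of 11 T cell markers 1 fell (Cd28), or 4 with the block, with a median of -4.30. Of 14 type 17 gamma delta T cell markers 1 fell (Blk), or 2 with the block, with a median of -2.35. Cd28 and Blk were named after their values were seen. The T cell list had 4 calls without KLRG1-positive library 1 and 0 without any other 1 library, and the type 17 gamma delta T cell list had 0 whichever library was left out.

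No other marker list had a call by edgeR, so counts at an unadjusted p under 0.05 and by DESeq2 are given. Over all genes, 4.19% were higher and 11.5% lower at that unadjusted p, and DESeq2 called 1.91% higher and 8.79% lower. The 6 B cell markers had a median log2 fold change of -3.53, all 6 were lower without adjustment, 4 by DESeq2, and 4 fell with the block. The 13 ILC2 markers tested had a median of 1.59, and 5 were higher without adjustment and 5 by DESeq2. Both counts include Klrg1, the gene of the sort marker, whose direction follows from the sort and is not a separate result. The 7 ILC1 and NK cell markers had a median of -2.70, 3 were lower without adjustment, 3 by DESeq2, and 1 fell with the block. The 9 tested markers of epithelium, endothelium and mesothelium had a median of -1.26, with 3 lower by either measure. These were the mesothelial genes Msln, Upk3b and Wt1, and no tested epithelial or endothelial marker was lower by either measure.

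Among the cell types in which Mas-related receptors are best known, the 4 tested mast cell markers had a median log2 fold change of 0.05. Of these, 1 was higher without adjustment and 1 by DESeq2, in both cases Cpa3. It was at 90.6, 34.1 and 29.7 CPM in KLRG1-positive libraries, against 12.5, 2.68 and 8.27 CPM in KLRG1-negative ones (adjusted p = 0.13 by edgeR). Fcer1a and Gata2 also had counts in both groups. Of the other mast cell protease genes on the list, Mcpt4 and Tpsab1 had 0 counts throughout, and Tpsb2 had 10 counts, all in KLRG1-negative library 1. Cma1 had 9, 0 and 11 counts in KLRG1-positive libraries, against 34, 0 and 25 in KLRG1-negative ones. Ms4a2 lay on the other side from Cpa3, with 3, 0 and 0 counts in KLRG1-positive libraries, against 111, 0 and 75 in KLRG1-negative ones. The 4 tested sensory neuron and glia markers had a median of 0.29, with 0 at an unadjusted p under 0.05 and 0 by DESeq2. Trpv1, the capsaicin receptor of nociceptors, and Sox10, a glial factor, had 0 counts throughout. The 4 tested smooth muscle and pericyte markers had a median of -2.47, with 1 lower by either measure. The 9 tested macrophage and granulocyte markers had a median of -0.30, with 1 higher and 1 lower by either measure.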

How the data were processed

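RNA sequencing libraries of sorted lung ILCs (SMARTer low-input cDNA, Nextera XT, which does not mark strand, per the labels' protocols) were read from the deposited table of raw counts per gene. Per the file headers, the authors counted reads with featureCounts 1.5.2 on Ensembl release 90 gene models of GRCm38, without strand and leaving out multi-mapping and ambiguous reads; STAR 2.4.1d is named in the submitters' processing notes. Deposited gene length entered only the per-kilobase levels, and the deposited counts of alignments per status gave the depth. Symbols and transcripts came from GENCODE M21, which named 52403 of the 52636 identifiers.

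The tests used edgeR 4.0.16 under R 4.3.3, with filterByExpr by group (15197 genes kept), TMM factors on those genes and the robust quasi-likelihood F test on all 6 libraries. P-values are two-sided and adjusted by Benjamini-Hochberg over all genes tested, with a threshold of 0.05. Positive log2 fold changes mean higher in KLRG1-positive cells. DESeq2 1.42.0, other scalings, no filter, the replicate number as a block and leaving out each library were the alternatives, and the script was tested on simulated counts. Members, gene lists and rules were chosen with earlier results of these data known. Genes named are the members, Lum, Col3a1, Cd3e, the family, protein-coding neighbours, the 10 most like Mrgprg and up to 2 abundant members per list; any other was named after its values were seen. The lists are G protein signalling, peptide ligand precursors and 11 sets of cell type markers. The replicate numbers were checked for pairing: after the group means were removed, the 2 libraries that carry number 1 correlated over genes at 0.38, those with number 2 at 0.34 and those with number 3 at 0.19. The numbers were therefore taken to pair libraries, from these values alone, as the labels name no shared mouse or day. The main fit leaves this pairing out, so its p-values and shares of genes called do not take it into account. The fit with the replicate number as a block does, and it called 0 genes higher and 53 lower.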

Additional observations from a re-analysis of the deposited data

How the results depend on the processing

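Mrgpre kept a positive log2 fold change in every alternative run, 0.82 to 1.19. It passed the threshold with DESeq2 (0.93, adjusted p = 0.00783), and elsewhere its adjusted p ranged over 0.129 to 0.345; the cause was not tested. With the replicate number as a block its log2 fold change was 0.94 with an adjusted p of 0.197, and the block did not change that call. The Mrgprg mean in KLRG1-negative libraries stayed within 35 to 38.1 CPM. Its CV was 8.13% with DESeq2 size factors, 6.99% with library size only and 5.04% with TMM factors over all genes, a setting added after the data were seen. The number of genes at least as even as Mrgprg, 1 as reported, was 0 with size factors, 0 with library size only, 0 with TMM over all genes and 0 when no KLRG1-positive count was allowed, and 0 to 10 when 1 KLRG1-negative library was left out, so its place rests on 3 libraries. Mrgprf kept its direction in all settings run, and its difference was -0.123 CPM without KLRG1-negative library 3, against -0.21 CPM with all libraries.

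Counts of calls over all genes, 19 higher and 184 lower as reported, moved more. They were 37 higher and 282 lower without the filter, 350 higher and 1609 lower with DESeq2, and 0 higher and 53 lower with the replicate block. When 1 library was left out, 0 to 5 were higher and 0 to 159 lower. A count of 0 in 1 KLRG1-positive library does not tell a level of 0 apart from one of up to 0.133 to 0.169 CPM, or 3 counts.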
